A study of Homo sapiens with 24 samples.

Results

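In RD cells, an established human line of fusion-negative rhabdomyosarcoma, 918 of 48009 merged SMARCA4 regions had a SMARCA4 peak in both TWIST2 knockdown (KD) libraries and in neither control library. These are called KD-only SMARCA4 regions. They were chosen by merging the peaks of the 4 SMARCA4 ChIP-seq libraries wherever at least 1 bp was shared, and they made up 1.91% of all merged regions. The same merge gave 3207 control-only regions, with a peak in both control and neither KD library, and 534 constant regions, with a peak in all 4 libraries. The SMARCA4 peak lists chose the members, so their SMARCA4 values are a description without a test. Peaks of H3K27ac, MYOD and tagged TWIST2 came from other libraries that the choice did not use.

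SMARCA4 (BRG1) is the motor subunit of SWI/SNF (BAF) chromatin remodelling complexes. It spends ATP to slide or evict nucleosomes, which opens DNA to transcription factors. MYOD is the basic helix-loop-helix factor that drives skeletal muscle differentiation and is known to work together with SWI/SNF at muscle genes. H3K27ac is a histone mark of active enhancers and promoters. TWIST2 is a basic helix-loop-helix factor of mesenchymal cells that binds E-box sequences, as MYOD does, and is known to oppose muscle differentiation.

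The groups used were SMARCA4 (antibody labelled BRG1), H3K27ac and MYOD ChIP-seq of TWIST2 KD cells and of control cells, and Ty1 ChIP-seq of cells labelled 3xTy1-TWIST2, with 2 libraries in each group. All were RD cells, a single line. The SMARCA4 libraries belonged to the set named RD-2 in the labels and all the others to RD-1. What these names mean is not stated. Whether SMARCA4 and the other antibodies were profiled in the same cultures or knockdowns is therefore unknown. The labels do not give the knockdown method, what the control cells received, how tagged TWIST2 was expressed, or whether replicates were separate cultures. Permutation p-values therefore refer to these libraries only. They depend on whether KD and control values separate, and do not measure the spread between libraries. Positions are in build hg19, and no hg19 gene annotation or sequence was used here, so regions are given by position, without gene names. For the same reason the cell type was not checked against marker genes.

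The SMARCA4 libraries differed in depth and enrichment before any comparison of sites. Total tags numbered 36095336 and 41066933 in the KD libraries, against 46690705 and 44810601 in the controls, per the file headers. The share of tags in peaks was 0.65% and 0.70% in KD, against 0.88% and 1.83% in control. Peak lists held 12518 and 14676 peaks in KD, against 11835 and 25013 in control, so control replicate 2 stood apart with the longest list. Control replicate 1 had an estimated fragment length of 82 bp, against 132 to 144 bp in the other 3. How deeply the libraries of H3K27ac, MYOD and Ty1 were sequenced is unknown, as their lists give positions only. A region missing from a control list did not reach the peak thresholds there, and the lists do not give its tags, so absence of a peak is not absence of SMARCA4.

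The KD-only regions were sites of ordinary SMARCA4 strength. Merged widths ran from 145 to 285 bp with a median of 190 bp. The file headers give peak sizes of 140 and 145 bp in KD replicates 1 and 2. Merged widths therefore follow from the peak calling and the member rule, and do not measure the extent of SMARCA4. They were 7.33% of the peaks of KD replicate 1 and 6.26% of those of KD replicate 2. The authors' signal, a normalised tag count per 10000000 tags, had a median of 4.99 at the members in KD replicate 1 (lowest 3.05, highest 12.5) and 4.87 in KD replicate 2 (lowest 2.92, highest 10.7). Over all peaks of those lists the medians were 4.99 and 4.38, and at the constant regions they were 5.82 and 6.09 in the same libraries. Members therefore sat at the middle of the list of KD replicate 1 and somewhat above the middle of that of KD replicate 2. Their median score percentile in KD replicate 2 was 57.7, against 50.5 over the list. They were below the constant regions in both libraries. Their median fold over input, also the authors' value, was 5.61 in KD replicate 1 and 5.54 in KD replicate 2, where a fold of 4 was required. The HOMER score stood at the lowest value of the list for 115 members in KD replicate 1, a score of 13, and for 41 members in KD replicate 2, a score of 14. The lower quartile of the score was 15 at members and 14 over all peaks in KD replicate 1, and 18 and 16 in KD replicate 2. At the lower quartile, members thus scored no lower than the lists. The counts at the lowest score have no matching share of the lists here. A peak in both KD lists is required by the member rule, so these scores are a description only. At the other end, 39 members were in the top 10% of both lists and 2 in the top 1% of both. These counts have no matching share over all merged regions here. Across members the signals of the 2 KD libraries had a Spearman's rho of 0.534, a description over regions that share libraries and a lower threshold.

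**Figure D1:**
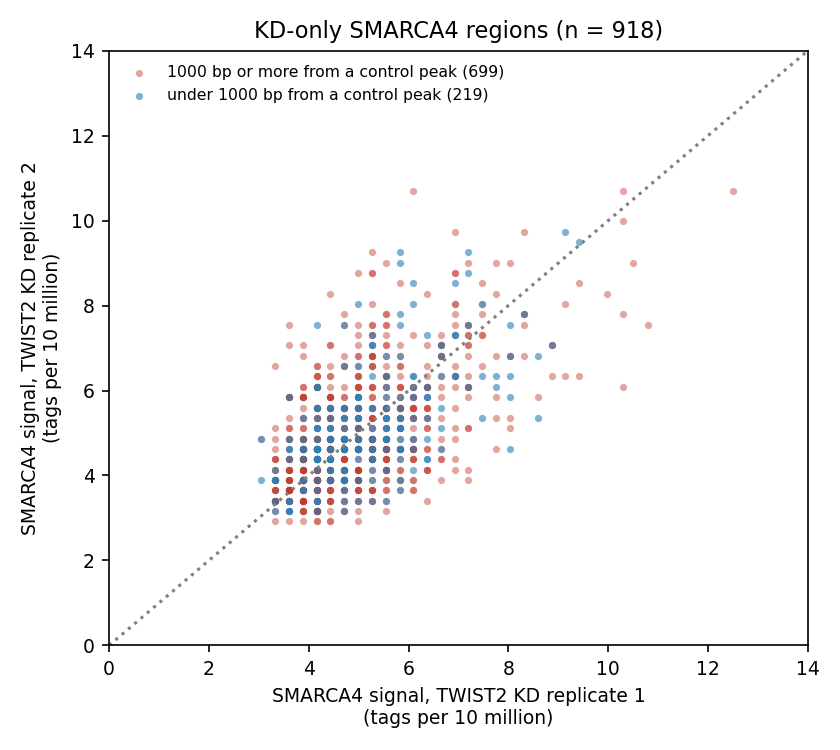
Authors' SMARCA4 signal as normalised tags (per 10000000) at each of the 918 KD-only regions, TWIST2 KD replicate 1 on the horizontal and KD replicate 2 on the vertical axis, with equal values on the dotted line. Points are red where the nearest control SMARCA4 peak was 1000 bp or more away (699) and blue where it was nearer (219). Most points lie between 3 and 8 on both axes.

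Most members (699) lay 1000 bp or more from any control SMARCA4 peak. The member rule itself bars overlap with a control peak, and no matching distances are given here for other SMARCA4 regions. The distances are therefore a description only. The median distance to the nearest control peak was 13542 bp, and 88 members (9.59%) were over 100000 bp from one. A smaller group of 219 members (23.9%) had a control peak under 1000 bp away, and 177 (19.3%) under 500 bp. At the edge of the rule, 45 members were under 50 bp from a control peak, and 62 regions with a peak in both KD libraries were left out although they overlapped a control peak by under 50 bp. The nearest members, at chr3:171821606-171821754, chr11:63319078-63319338, chr12:21927432-21927582 and chr14:59349463-59349715, abutted a control peak with 0 bp between them. Their signal in KD replicates 1 and 2 was 6.65 and 5.11, 3.88 and 4.63, 5.26 and 3.9, and 6.09 and 4.87 normalised tags. Just outside, chr17:80064427-80064765 shared 1 bp with a control peak and had 6.65 and 5.84 normalised tags in the KD libraries. The next such regions, chr11:112977298-112977606, chr2:64370807-64371245 and chr12:110562434-110562803, shared 2, 4 and 5 bp. SMARCA4 starts were read as counted from 1, which the lists do not state, and whether a region at this edge shares a single base with a control peak depends on that reading. In all, 601 regions with a peak in both KD libraries missed membership through a peak in control replicate 2 alone and 197 through a peak in control replicate 1 alone.

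H3K27ac was found at more of the KD-only SMARCA4 regions in KD than in control libraries. A peak of H3K27ac overlapped 73.2% and 70.5% of the members in the KD libraries, against 52.0% and 51.0% in the control libraries. Means were 71.8% ± 1.93 in KD and 51.5% ± 0.693 in control (SD, n = 2 each), a difference of 20.4 percentage points. Both KD values lay above both control values. An exact permutation test, two-sided, gave p = 0.333, the lowest value obtainable with 2 libraries in each group, and a p of 0.05 is therefore out of reach throughout. Over all merged SMARCA4 regions the means were 67.7% ± 0.688 in KD and 62.0% ± 1.34 in control, a difference of 5.74 points. The H3K27ac lists themselves were longer in KD (48022 and 46822 peaks) than in control (36679 and 34932). Taking the same number of H3K27ac peaks from each library, widest first, an alternative chosen after seeing the data, lowered the difference at members to 11.6 points.

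Constant and control-only SMARCA4 regions did not show a difference of that size. Constant regions had H3K27ac at 79.3% ± 0.132 in KD and 77.2% ± 2.12 in control libraries, and control-only regions at 78.2% ± 0.529 in KD and 78.2% ± 0.838 in control (SD, n = 2 each). The KD minus control difference at the members exceeded that at constant regions by 18.2 points and that at control-only regions by 20.4 points, with an exact permutation p of 0.333 for each, again the smallest possible. Member minus constant shares were -6.20 and -8.73 points in KD replicates 1 and 2, and -26.7 and -24.7 points in control replicates 1 and 2. Regions defined by a single KD library showed a smaller difference: without SMARCA4 KD replicate 1 it was 12.8 points over 10108 regions, and without SMARCA4 KD replicate 2 it was 12.5 points over 7720 regions. Without control replicate 2, the library that stood apart, it was 15.1 points over 1489 regions, and its excess over constant regions was 10.7 points. That excess was 10.3 points without SMARCA4 KD replicate 1 and 10.2 points without SMARCA4 KD replicate 2, and over control-only regions the excess was 12.3 and 11.9 points in the same order of omission.

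**Figure D2:**
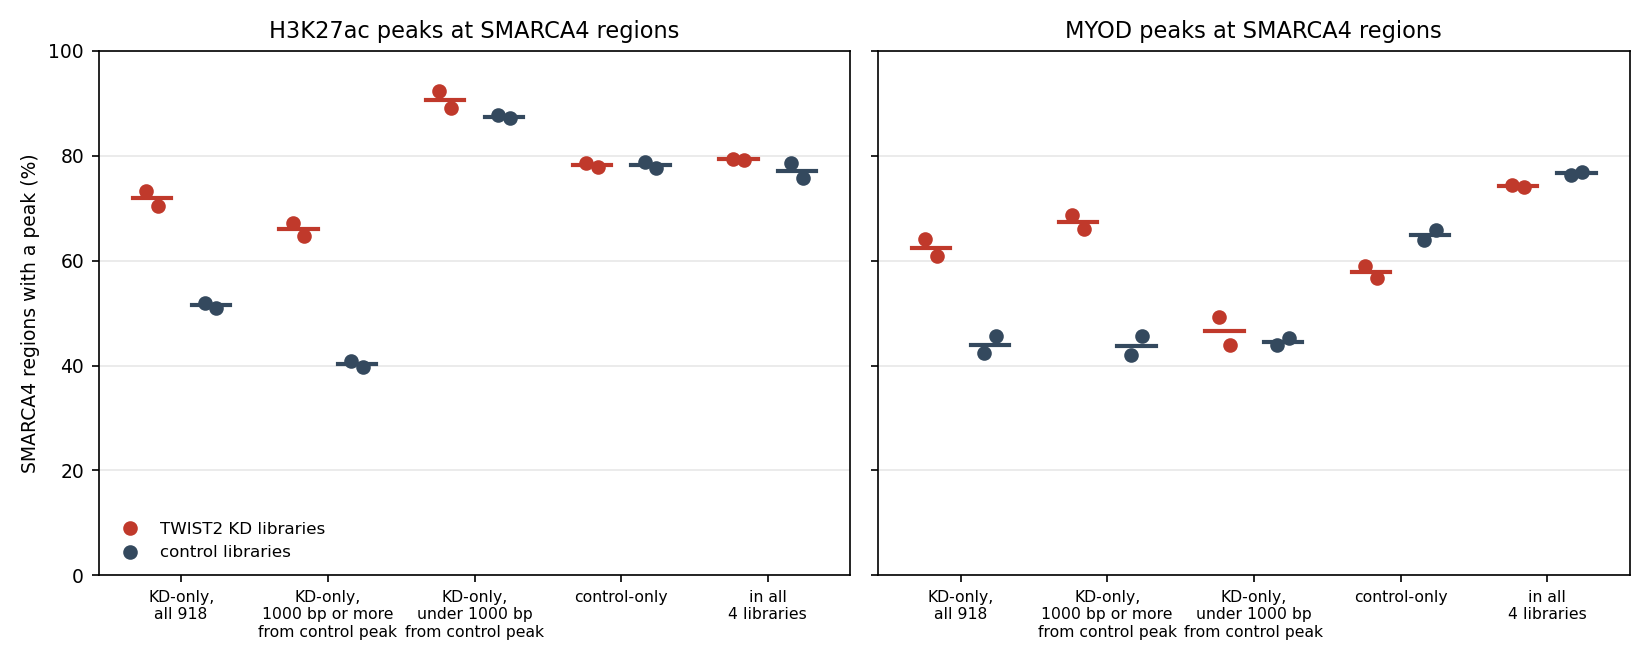
Share of SMARCA4 regions (%) that overlap an H3K27ac peak (left) or a MYOD peak (right), with TWIST2 KD libraries in red and control libraries in dark blue. Points are libraries and bars are means of 2. The KD and control points are separate at all 918 KD-only regions and at those 1000 bp or more from a control SMARCA4 peak, while H3K27ac points lie close together at control-only regions.

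H3K27ac peaks also covered more bases around the members in KD than in control libraries. Within 1000 bp either side of the member centre, H3K27ac peaks covered on average 1227 and 1199 bp in the KD libraries, against 847 and 831 bp in the control libraries. The difference was 374 bp (two-sided exact permutation p = 0.333). Constant regions had means of 1400 ± 2.74 bp in KD and 1336 ± 20.9 bp in control. Control-only regions had 1365 ± 6.38 bp in KD and 1374 ± 19.7 bp in control. Peak width differed too at the 409 members with an H3K27ac peak in all 4 libraries. The peak over the site had a median width of 2655 and 2650 bp in KD libraries, against 2251 and 2268 bp in control libraries (exact permutation p = 0.333). At 380 constant regions with a peak in all 4 libraries, median widths averaged 2744 ± 66.1 bp in KD and 2554 ± 26.9 bp in control. At 2302 control-only regions they averaged 2739 ± 24.4 bp in KD and 2731 ± 17.3 bp in control (exact permutation p = 0.667, SD, n = 2 each). The difference in covered bases was 223 bp without SMARCA4 KD replicate 1 and 231 bp without SMARCA4 KD replicate 2. It was 292 bp with the same number of H3K27ac peaks from each library, widest first, chosen after seeing the data.

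**Figure D3:**
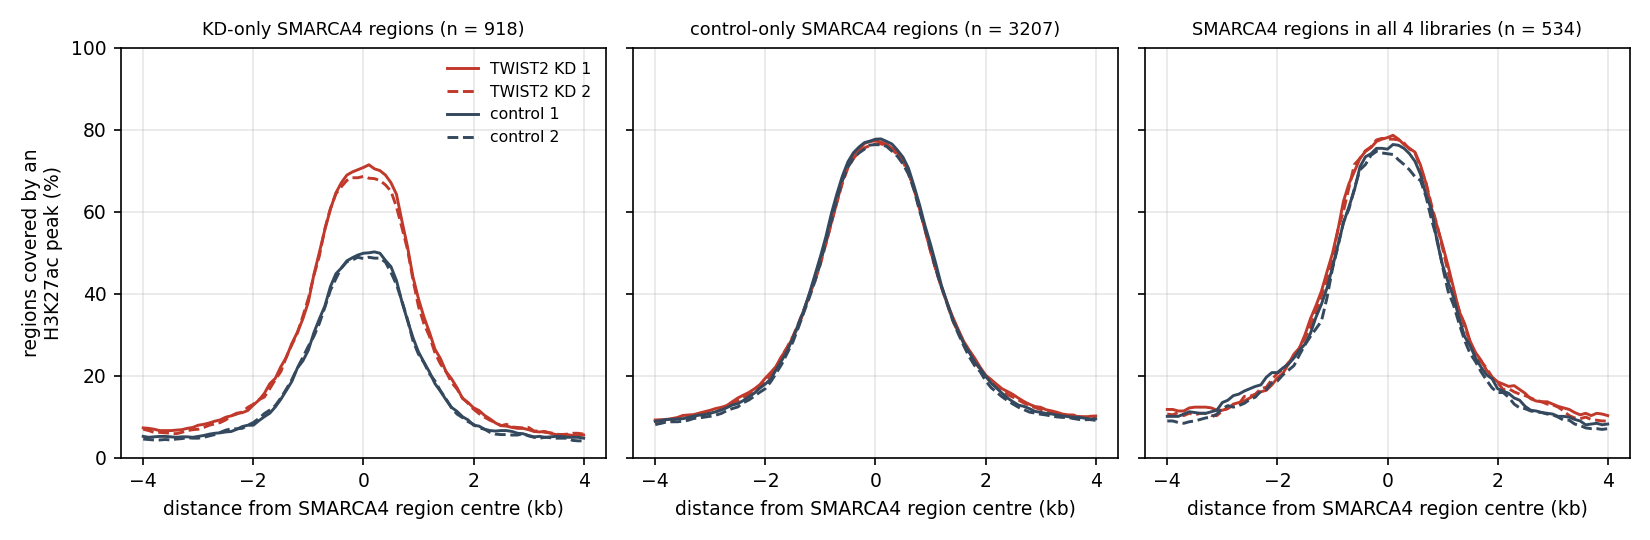
Share of SMARCA4 regions (%) covered by an H3K27ac peak at each distance (kb) from the region centre, for TWIST2 KD libraries (red) and control libraries (dark blue), replicate 1 solid and replicate 2 dashed. At the centre of KD-only regions the KD lines reach 70.8% and 68.6% and the control lines 49.9% and 48.6%, and the 4 lines run close together at control-only regions.

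MYOD was likewise found at more members in KD than in control libraries. A MYOD peak overlapped 64.1% and 60.8% of them in KD, against 42.4% and 45.5% in control. Means were 62.4% ± 2.31 in KD and 44.0% ± 2.23 in control (SD, n = 2 each), a difference of 18.5 points (p = 0.333, two-sided exact permutation test). Both KD libraries lay above both controls. Over all merged SMARCA4 regions the means were 43.8% ± 1.34 in KD and 42.2% ± 0.884 in control, a difference of 1.61 points, and both KD values again lay above both control values. The MYOD lists were also longer in KD (52510 and 48003 peaks) than in control (44974 and 43381). At control-only SMARCA4 regions the order was the other way, with 57.9% ± 1.68 in KD and 64.9% ± 1.30 in control, and constant regions had 74.2% ± 0.265 in KD and 76.7% ± 0.397 in control. The difference at the members exceeded that at constant regions by 21.0 points and that at control-only regions by 25.5 points (exact permutation p = 0.333 for each). The deposited MYOD peaks were 213 and 225 bp wide in KD and 159 and 179 bp in control. With every MYOD peak set to 200 bp, a choice made after seeing the data, the difference at members was 16.8 points. It was 10.7 points without SMARCA4 KD replicate 1 and 11.1 points without SMARCA4 KD replicate 2. Without SMARCA4 control replicate 1, the excess of the MYOD difference at members over that at constant regions was 13.9 points.

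MYOD peaks were centred near the SMARCA4 sites. A MYOD peak centre was within 50 bp of the member centre at 34.4% and 33.8% of members in KD libraries, against 22.4% and 23.7% in control libraries. Both KD values were above both control values (exact permutation p = 0.333). Constant regions had 40.4% ± 0.397 in KD and 42.3% ± 1.85 in control. Control-only regions had 29.3% ± 1.17 in KD and 33.7% ± 1.26 in control. This measure does not depend on peak width.

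**Figure D4:**
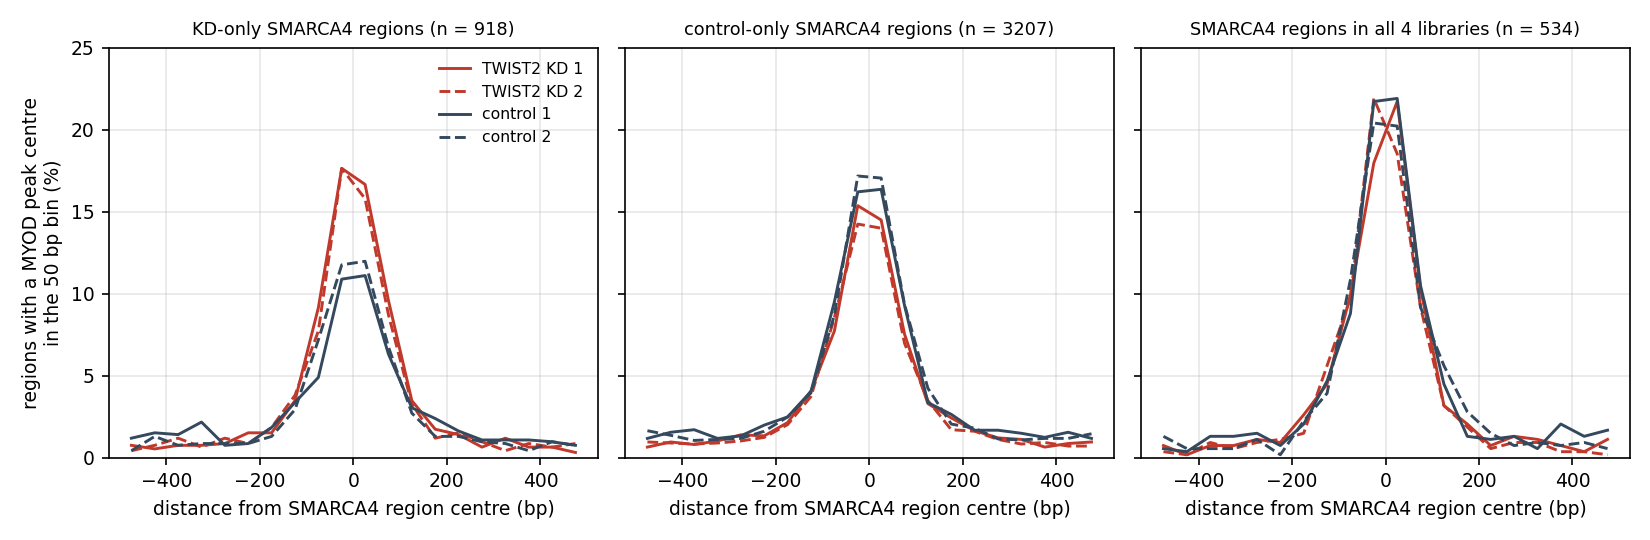
Share of SMARCA4 regions (%) with a MYOD peak centre in each 50 bp bin of distance (bp) from the region centre, for TWIST2 KD libraries (red) and control libraries (dark blue), replicate 1 solid and replicate 2 dashed. The lines peak at the centre in every class, and within 100 bp of it the KD lines stand above the control lines at KD-only regions and below them at control-only regions.

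Counted region by region, a member had an H3K27ac peak in both KD and neither control library in 150 cases (16.3%), where 6.8% of all merged SMARCA4 regions did. The opposite pattern, a peak in both control and neither KD library, was seen at 10 members (1.09%), where the background was 2.44%. The largest group, 409 members (44.6%), had H3K27ac in all 4 libraries, below the 55.1% of all merged SMARCA4 regions, and 212 (23.1%) had it in none, against 25.8% of all merged regions. For MYOD, 113 members (12.3%) had a peak in both KD and neither control library against a background of 4.73%, and 17 (1.85%) had the opposite pattern against a background of 3.72%. All 4 libraries had MYOD at 249 members (27.1%) and at 20.5% of all merged regions. No library had it at 173 members (18.8%) and at 32.4% of all merged regions. Control-only and constant regions had MYOD in all 4 libraries at 36.6% and 55.1%, and in none at 14.6% and 7.87%. Many merged regions had a peak in 1 SMARCA4 library alone, such as 15089 in control replicate 2, whereas members needed 2 libraries.

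**Figure D5:**
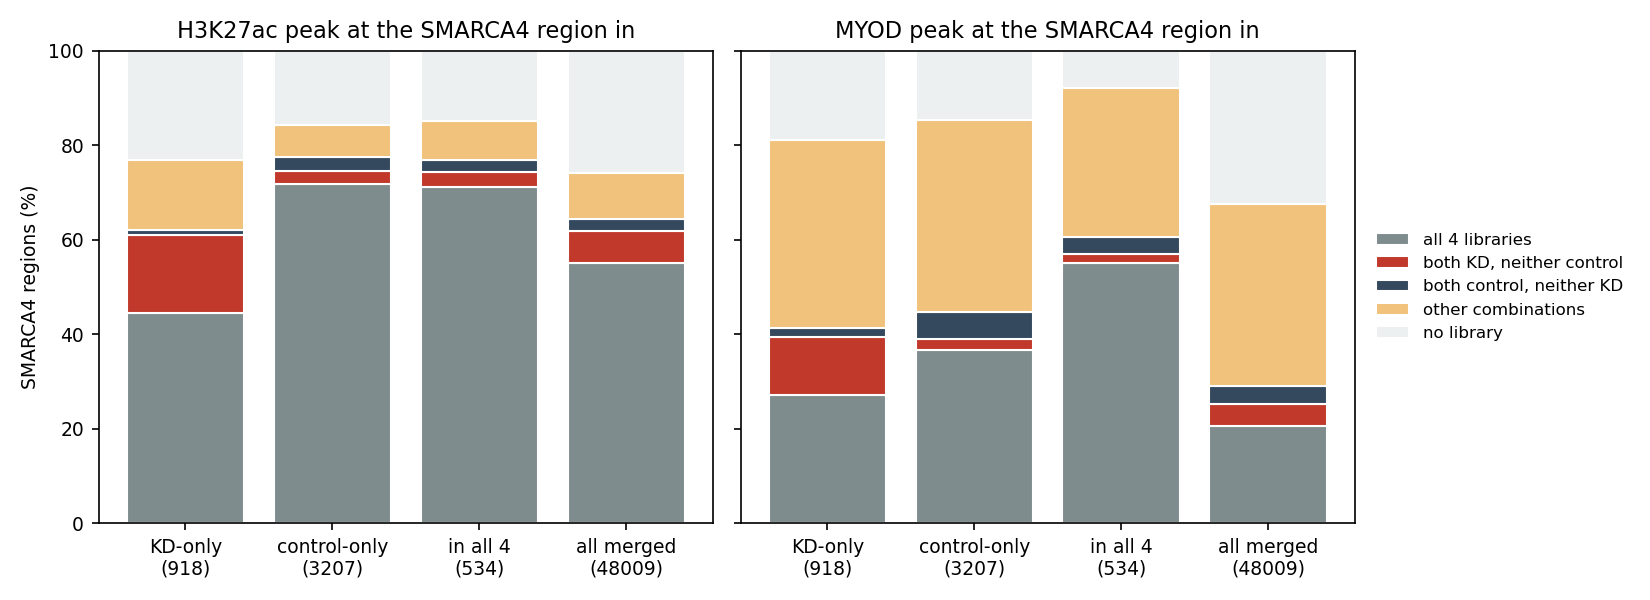
Share of SMARCA4 regions (%) by the libraries in which an H3K27ac (left) or MYOD (right) peak overlapped them, as stacked bars that add to 100%. The red part, a peak in both KD and neither control library, is 16.3% for H3K27ac and 12.3% for MYOD at KD-only regions, against 6.8% and 4.73% of all merged SMARCA4 regions.

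Whole regions of H3K27ac and MYOD that were KD-only by the same rule also met at the members. A KD-only H3K27ac region held 134 members (14.6%, 95% Wilson interval 12.5 to 17.0), where 5.91% of all merged SMARCA4 regions lay in one, and 19.8% of all merged H3K27ac regions were KD-only. A KD-only MYOD region was present at 108 members (11.8%, 9.84 to 14.0), where the background was 4.3%, and 9.1% of all merged MYOD regions were KD-only. Both together were present at 46 members (5.01%, 3.78 to 6.62) against a background of 1.16%. Control-only H3K27ac regions held 8 members (0.871%) against a background of 2.02%, and control-only MYOD regions 18 members (1.96%) against 3.74%. The 134 KD-only H3K27ac regions at members had a median width of 1774 bp, where all 11079 KD-only H3K27ac regions had 1474 bp. This was not particular to KD-only H3K27ac regions. Constant H3K27ac regions had 3010 bp at members against 2725 bp in all, and control-only ones 1468.5 bp against 1154 bp. Regions of the remaining patterns had 1515 bp at members against 716 bp in all. Without SMARCA4 control replicate 2, 172 of 1489 regions (11.6%) lay in a KD-only H3K27ac region and 147 (9.87%) at a KD-only MYOD region. Where a single KD library defined the regions, the shares were 9.90% and 7.30% without KD replicate 1, and 9.81% and 7.42% without KD replicate 2. The count of 134 was 99 with the same number of H3K27ac peaks from each library, widest first, an alternative chosen after seeing the data. The background was not recomputed for that setting. The count of 108 was 169 without MYOD control replicate 2, 166 without MYOD KD replicate 1 and 180 without MYOD KD replicate 2. These intervals cover counting error only, and regions are not replicates.

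H3K27ac was also compared among members grouped by MYOD. Among the 113 members with MYOD in both KD and neither control library, H3K27ac was present at 69.9% and 61.1% in KD libraries, against 20.4% and 20.4% in control libraries. At the 249 members with MYOD in all 4 libraries it was present at 85.5% and 84.7% in KD, against 68.7% and 69.1% in control. At the 173 members without any MYOD peak it was present at 60.1% and 56.6% in KD, against 45.1% and 44.5% in control. KD libraries were above control libraries in all 3 groups. The difference at members with MYOD in KD libraries alone exceeded that at members with MYOD in all 4 libraries by 28.9 points (exact permutation p = 0.333). Matching values for other SMARCA4 regions with these MYOD patterns are not given here, so the comparison holds within members only.

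Distance from a control SMARCA4 peak split the members into groups with different surroundings. The 699 members at 1000 bp or more had H3K27ac at 67.2% and 64.7% in KD libraries, against 40.8% and 39.6% in control libraries, and MYOD at 68.7% and 66.1% in KD, against 41.9% and 45.6% in control. The 219 members under 1000 bp had H3K27ac at 92.2% and 89.0% in KD, against 87.7% and 87.2% in control. Their MYOD values overlapped, at 49.3% and 43.8% in KD and 43.8% and 45.2% in control (exact permutation p = 1). The KD minus control difference was larger away from control peaks by 22.6 points for H3K27ac and 21.6 points for MYOD (exact permutation p = 0.333 for each). Of the nearer members, 178 (81.3%) had H3K27ac in all 4 libraries, and a KD-only region of the mark held 6 (2.74%). The farther members had H3K27ac in all 4 libraries in 231 cases (33.0%), and 128 (18.3%) were inside a KD-only region of the mark.

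Tagged TWIST2 was present at 35.4% of the members, and H3K27ac differed between KD and control libraries both with and without it. A TWIST2 region, one with a peak in both Ty1 libraries, overlapped 325 members (95% Wilson interval 32.4 to 38.6), 35.5% of control-only regions, 46.3% of constant regions and 28.4% of all merged SMARCA4 regions. A Ty1 peak in at least 1 library was present at 483 members (52.6%) and at 43.0% of all merged SMARCA4 regions. It was present at 50.2% of control-only and 62.5% of constant regions. Members with a TWIST2 region had H3K27ac at 76.9% and 74.5% in KD libraries, against 54.2% and 52.9% in control libraries. Members without one had it at 71.2% and 68.3% in KD, against 50.8% and 49.9% in control. The KD minus control difference was 2.76 points larger with TWIST2 than without it for H3K27ac, and the same subtraction gave -3.34 points for MYOD (exact permutation p = 0.333 for each). KD-only H3K27ac regions held 48 of 325 members with TWIST2 (14.8%) and 86 of 593 without (14.5%), and KD-only MYOD regions were present at 29 with TWIST2 (8.92%) and 79 without (13.3%). Among members, MYOD in all 4 libraries was the pattern with the highest TWIST2 share, at 144 of 249 (57.8%). Members without MYOD had a TWIST2 region at 28 of 173 (16.2%). The counts split by TWIST2 or by MYOD pattern have no matching share over all merged, control-only or constant regions here. They therefore describe the members alone. The Ty1 libraries came from cells that were neither KD nor control, and no Ty1 library of untagged cells was used here. Without SMARCA4 KD replicate 1 the TWIST2 share was 22.7%.

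The 8 members with the highest mean percentile of the peak score in the KD lists were led by chr9:109561582-109561783, with 12.5 and 10.7 normalised tags in KD replicates 1 and 2. This region had H3K27ac peaks of 3011 and 3174 bp in the KD libraries and none over the site in the controls, MYOD in all 4 libraries and a TWIST2 region, and its nearest control SMARCA4 peak was 93297 bp away. The second, chr7:98023829-98023988, had 10.3 and 10.7 normalised tags, H3K27ac and MYOD in all 4 libraries and a TWIST2 region. The third, chr2:210479784-210479998, with 10.3 and 9.98 normalised tags, had H3K27ac peaks of 4607 and 4030 bp in the KD libraries, against 501 bp in control replicate 1 and none in control replicate 2. Next came chr9:110039301-110039483, with 10.5 and 9.01 normalised tags and MYOD in both KD and neither control library. The H3K27ac peak there was 5192 and 4973 bp wide in KD, against 2934 bp in control replicate 1 and none in control replicate 2. By contrast chr7:92956421-92956605, with 9.42 and 8.52 normalised tags, had a TWIST2 region and no H3K27ac or MYOD peak in any library. It lay 409630 bp from the nearest control SMARCA4 peak. The sixth, chr2:170590872-170591054, with 9.42 and 9.5 normalised tags, had H3K27ac in all 4 libraries but a control SMARCA4 peak only 7 bp away. The last of the 8 were chr9:127595080-127595268 and chr8:2384223-2384370, both with H3K27ac in all 4 libraries.

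Members at both a KD-only H3K27ac and a KD-only MYOD region were led by chr10:77118853-77119017, with 6.93 and 8.77 normalised SMARCA4 tags in the KD libraries. Its H3K27ac peaks were 1674 and 1859 bp wide in KD, and neither control library had one. Next was chr16:68857406-68857586, with 8.59 and 5.84 normalised tags, H3K27ac peaks of 2176 and 2098 bp in KD and none in control, and a TWIST2 region. At chr2:202519800-202520024 the SMARCA4 signal was 7.2 and 6.33 normalised tags and H3K27ac peaks were 1781 and 1756 bp wide in KD, with none in control. The widest H3K27ac peaks of these 4 members were at chr9:117909070-117909334, with peaks of 5892 and 6367 bp in KD and none in control, beside SMARCA4 signals of 6.09 and 5.84 normalised tags. The control SMARCA4 peak nearest to any of these 4 was 8016 bp away.

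A further 110 members (12.0%) lay in constant H3K27ac and constant MYOD regions and carried a TWIST2 region, as 9.55% of all merged SMARCA4 regions and 29.8% of constant ones did. Besides the second and seventh regions above, chr2:189340939-189341097 and chr7:105094898-105095051 led this group. At the second of these the H3K27ac peak was 8860 and 9511 bp wide in KD, against 5291 and 5210 bp in control. No peak of any other antibody was present at 39 members (4.25%), and 10.8% of all merged SMARCA4 regions were likewise without one. The same held for 3.46% of control-only and 2.06% of constant regions, so members did not stand apart from these classes by a low share. The 39 members were led by chr8:8340985-8341207, with 7.2 and 5.84 normalised tags, chr10:99334466-99334662, chr2:9880916-9881083 and chr3:41037947-41038123. Finally, 26 members (2.83%) lay at a control-only region of H3K27ac or MYOD, where 5.6% of all merged SMARCA4 regions did. At the first of them, chr7:23053086-23053265, MYOD was present in both control and neither KD library although H3K27ac was present in all 4. The next, chr7:28449283-28449432, combined MYOD peaks in both control and neither KD library with H3K27ac peaks of 2509 and 2469 bp in KD and none in control. The third was chr8:24367082-24367260. The first and second of these lay 17 and 266 bp from a control SMARCA4 peak.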

How the data were processed

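The series held 24 ChIP-seq samples. Peak lists came with 14, and the 10 inputs were not used here. Build hg19 (GRCh37) and the tools HOMER 4.4, bedtools 2.29.2, Bowtie2 2.3.4.3 and SAMtools 0.1.19 are named per the submitters' processing notes. Peaks were called in each library. The H3K27ac, MYOD and Ty1 lists give positions only. Per the file headers, SMARCA4 peaks were called by HOMER with a false discovery rate threshold of 0.001 and a required fold of 4 over the input and over the local 10000 bp. Columns deposited for each SMARCA4 peak hold the authors' own signal, normalised to 10000000 tags, the HOMER score, ratios (the fold over input and over local background, and the focus ratio) and p-values. The score ranked peaks within a list, and the p-values were not used.

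Peaks were merged at 1 bp of overlap, and a region was assigned to every library with an overlapping peak. H3K27ac and MYOD regions were classed by the same rule as SMARCA4 regions. Shares were compared over libraries with an exact two-sided permutation test of the difference of means, and shares of regions have 95% Wilson intervals. The assignment of regions to classes was tested on simulated peak lists of known class. Python 3.11.15, numpy 2.4.6, pandas 2.3.3, scipy 1.17.1 and matplotlib 3.10.9 were used.

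Named regions were the 8 members with the highest mean score percentile over both KD lists, the first 4 by that order that lay in KD-only regions of both H3K27ac and MYOD, the first 4 in constant H3K27ac and MYOD regions with TWIST2, the first 4 with no other peak, the first 3 at a control-only region, and the 4 nearest to each side of the edge of the rule. The members and lists were chosen with earlier results of these data known. The split at 1000 bp and the groups by MYOD and TWIST2 were chosen after seeing the data. Gene lists and motifs were not analysed here.

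Alternatives were a merge distance of 500 bp, an overlap of 0.5 of the shorter interval, equal list lengths, the 50% of each SMARCA4 list with the higher scores, peaks of 200 bp, members at least 1000 bp from a control peak, peaks within 500 bp, TWIST2 regions from either Ty1 library, no chromosome 19, leaving out each library, and a block for the replicate number.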

Additional observations from a re-analysis of the deposited data

How the results depend on the processing

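All 7 differences between KD and control libraries kept their direction under all alternatives run, in 114 values, and none could pass 0.05. The 918 members became 488 in the upper 50% of each SMARCA4 list, where 67 lay in KD-only H3K27ac and 49 at KD-only MYOD regions. The TWIST2 share of 35.4% became 38.9% with a merge distance of 500 bp, 29.8% with an overlap of 0.5 of the shorter interval, 39.5% in the upper 50% of the lists, 39.2% for members at least 1000 bp from a control peak, and 52.6% with TWIST2 regions from either Ty1 library. Leaving out 1 library in turn gave 1110 to 10108 members, 140 to 1001 in KD-only H3K27ac regions, 113 to 738 at KD-only MYOD regions and TWIST2 shares of 22.7% to 39.7%. Such a class admits regions found in 1 library of its group. With the replicate number as a block the differences stayed as they were, 20.4 points for H3K27ac and 18.5 points for MYOD at the members, with an exact sign-flip permutation p of 0.5, the smallest that 2 pairs allow. Deviations of same-numbered libraries from their group means were hardly correlated across regions (-0.03 for SMARCA4). With 2 libraries in each group this cannot decide whether same-numbered libraries were paired, and the labels do not say. The unknown depth of the H3K27ac, MYOD and Ty1 lists limits what their peak numbers can show.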

Other observations

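Members fell in 740 windows of 1 Mb, of which 583 held a single member and 20 held at least 3. Another member started within 100000 bp of 87 members (9.48%). No matching counts are given here for other SMARCA4 regions, and whether members were spread or clustered was not tested. The window with the most members, chromosome 17 from 76000001 to 77000000, held 4 of them, beside 6 control-only SMARCA4 regions and 8 KD-only H3K27ac regions. On chromosome 20, the window 13000001 to 14000000 held 3 members and no control-only region of SMARCA4, H3K27ac or MYOD, although 5 H3K27ac and 4 MYOD regions there were KD-only. Both windows were picked after their counts were seen.

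Chromosomes 13 and X held few members, 3 of 648 and 2 of 644 merged SMARCA4 regions (0.463% and 0.311%, against 1.91% over all chromosomes). Chromosome 13 had 56 and 129 SMARCA4 peaks in the KD libraries, 0.447% and 0.879% of those lists, against 218 and 425 in the controls, 1.84% and 1.70%. Chromosome X had 58 and 110 in KD, against 197 and 449 in control. Chromosome X shares were 0.463% and 0.750% of the KD lists, against 1.66% and 1.80% of the control lists. H3K27ac peaks on chromosome 13 made up 2.76% and 2.72% of the KD lists, against 2.3% and 2.32% of the control lists. On chromosome X they made up 2.71% and 2.80% of the KD lists, against 2.68% and 2.81% of the control lists, and these values overlap.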
